A study of Fragaria vesca with 12 samples.

Results

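The genes described here are those of the auxin pathway in strawberry fruit. They were chosen by their descriptions in the authors' expression table, which had to hold the word auxin, SAUR, GH3, yucca, PIN-FORMED, indole-3-pyruvate or indole-3-acetic. The rule took 102 of the 21927 genes in the table. By description they were 23 auxin response factors, 19 Aux/IAA proteins, 24 SAUR proteins, 9 GH3 enzymes, 13 transport proteins and 14 further genes named after auxin. These are counts of annotated genes, and some, such as the ARF17 entries FvH4_5g38690 and FvH4_5g38700, are described as partial. No description named a YUCCA or another indole-3-pyruvate enzyme, so the group of synthesis genes had 0 members, and enzymes of auxin synthesis found by other words are given after the other results.

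Fruit of the diploid strawberry Fragaria vesca was taken 27 days post anthesis (DPA) from wild-type (WT) plants and from the Fvalkbh10b mutant. ALKBH10B is known from Arabidopsis as an enzyme that removes the methyl mark N6-methyladenosine (m6A) from mRNA. Each genotype gave 3 biological replicates, each with an input library of fragmented mRNA and a library of the same kind of RNA precipitated with an antibody against m6A (IP), which makes 12 libraries in 4 groups. The labels give neither the allele of the mutant nor the number of lines, and they do not say whether the achenes were kept on the fruit. No gene description held the name ALKBH10B, so the targeted gene was not analysed here and the labels were not checked against it.

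Auxin is bound by F-box receptors of the TIR1/AFB family, which then mark Aux/IAA repressors for breakdown and so release the auxin response factors (ARFs) that the repressors hold. Aux/IAA, SAUR and GH3 genes are the classic families that auxin switches on within a short time. GH3 enzymes join auxin to amino acids, and AUX/LAX importers and PIN efflux carriers move it between cells. In strawberry, auxin from the achenes drives growth of the receptacle, and a fall in auxin goes with ripening.

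Input RNA was compared as FPKM, which sets fragment counts against exon length and sequencing yield. Of the 102 genes, 67 averaged 1 FPKM or more across the 6 input libraries and were tested, and none of the other 35 exceeded 1.73 FPKM in any library. A limma fit over all 15571 genes that passed this filter called 40 of the 67 higher and 22 lower in the mutant at a Benjamini-Hochberg adjusted p under 0.05. The background was high: 67.5% of all tested genes were called, 48.3% higher and 19.1% lower. Log2 changes of at least 1, on the log2(FPKM + 1) scale of the fit, were found in 26 genes that were higher and 14 that were lower. This is 38.8% and 20.9% of the 67, beside 14.0% and 6.49% of all tested genes. Some called genes outside these counts differ by more than 2-fold as a ratio of mean FPKM, the measure of the fold differences below. In 62 of the 67 the libraries of the genotypes did not overlap, a larger share than the 71.4% of all tested genes. With 3 against 3 libraries the smallest exact two-sided permutation p is 0.1.

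The median log2 change, mutant minus WT on the log2(FPKM + 1) scale, was 0.64 over the 67 genes and 0.25 over all tested genes. When each library was rescaled to the same median, 37 of the auxin genes were higher and 27 lower, and the median over all tested genes was 0.0016. The shares of all genes called after rescaling are not given here, so counts after rescaling have no background beside them. Results that depend on this shift are named where they occur. Summed FPKM ran from 467174 to 522590 per library, and the lowest Pearson r between replicates was 0.988 across genes. The 38 green-tissue genes (chlorophyll-binding, photosystem and plastocyanin) had sums of 290 to 304 FPKM across WT libraries and 3038 to 3238 across mutant ones, and all 31 tested ones were higher. The 25 achene and seed genes (storage proteins and oleosins) had sums of 655 to 669 FPKM across WT libraries. Those across mutant libraries were 461 to 497, with 6 of 18 tested genes higher and 9 lower. A single storage protein gene (FvH4_5g29270) went from 196.65, 191.81 and 194.52 FPKM in WT to 0.06, 0 and 0.22 in the mutant. Its fall was as large as that of the sum, so the sum does not show a fall of the list as a whole. The legumin B-like gene FvH4_3g19080 rose from 21.84, 21.02 and 24.4 FPKM in WT to 107.59, 94.81 and 89.86 in the mutant. The 14 genes of lignified vascular tissue had sums of 13.9 to 15.4 FPKM across WT libraries and 23.9 to 27.6 across mutant ones, with 4 of 5 tested ones higher and 1 lower. No gene of these lists was at 0 in every library. Listed at 0 throughout WT were 5 green-tissue, 2 achene and seed and 2 vascular genes. Throughout the mutant, 1 green-tissue and 1 vascular gene were listed at 0. The part of these lists in the results below was not tested. In whole fruit, fewer cells of a type and less RNA per cell cannot be told apart.

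**Figure D1:**
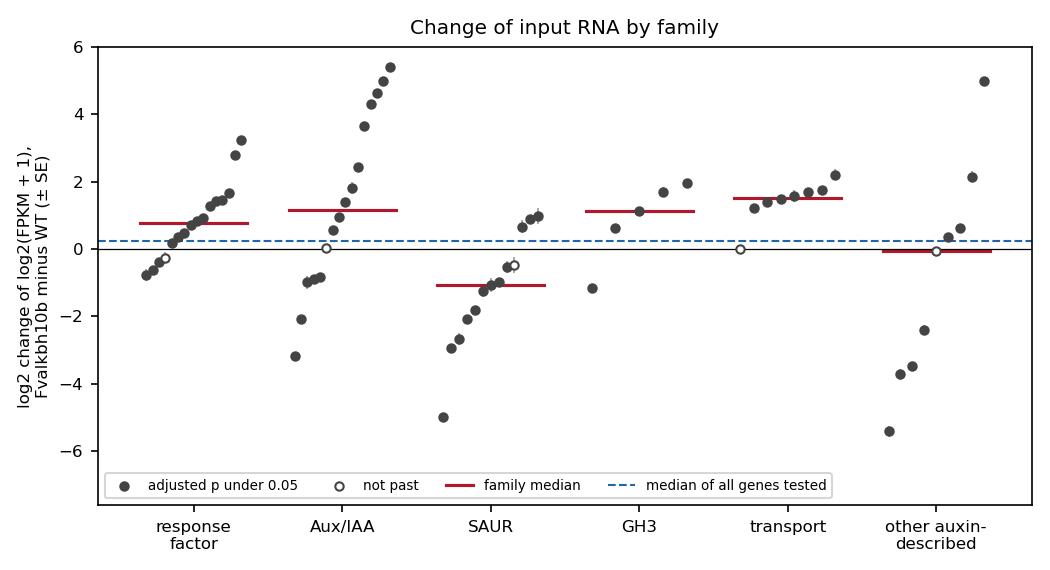
Change of input RNA of the 67 tested auxin genes by family, as log2 change of log2(FPKM + 1), mutant minus WT, with the standard error (n = 3 and 3 libraries); red bars are family medians and the dashed line is the median of all tested genes, 0.25. Transport genes sit at or above 0, SAUR genes lie mostly below it, and Aux/IAA genes run from -3.17 to 5.40.

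Aux/IAA genes, which encode the repressors, changed in both directions, and the members with the highest levels differed between the genotypes. Of 16 tested members 10 were higher, 5 were lower and 1 did not pass, and the median log2 change was 1.17. The shares are 62.5% higher and 31.3% lower, beside 48.3% and 19.1% of all tested genes. The summed level was 449.8 ± 15.3 FPKM (WT) and 888.4 ± 5.22 (mutant) (SD, n = 3 each), a ratio of 1.98. In WT, IAA11-like, AUX28-like and IAA9 held 42.7%, 22.8% and 15% of that sum. In the mutant IAA16, IAA14-like and IAA4-like held 21.3%, 21.1% and 11.5%, after 0.783%, 1.47% and 0.505% in WT.

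IAA16 (FvH4_6g02860, chromosome 6, 1613749 to 1616364, minus strand) measured 3.39, 3.97 and 3.20 FPKM in the WT libraries against 189, 189 and 189 in those of the mutant, a 53.7-fold difference (log2 change 5.40 ± 0.07 SE, adjusted p = 4.80e-12). The mutant libraries had an SD of 0.265 FPKM and lay far above every WT library. Its neighbour IAA4-like (FvH4_6g02870, chromosome 6, 1622681 to 1624057, plus strand) gave WT values of 2.07, 2.80 and 1.95 FPKM and mutant values of 106, 94.1 and 107. The 2 genes lie head to head within 10.3 kb. IAA14-like (FvH4_4g02280, chromosome 4, 2122941 to 2125371, plus strand) read 6.94, 6.44 and 6.46 FPKM in WT libraries and 183, 190 and 190 in mutant ones, 28.3-fold higher. Upstream of it in the same head-to-head arrangement lies IAA4 (FvH4_4g02260, minus strand), which measured 0.09, 0.08 and 0 FPKM in the WT libraries against 1.94, 2.69 and 3.62 in those of the mutant.

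A further pair of similar names rose together from different chromosomes. IAA27 (FvH4_1g05630, chromosome 1, 2974641 to 2978582) went from 5.74, 5.44 and 5.71 FPKM to 84.3, 84.3 and 80.0, and IAA27-like (FvH4_6g31930, chromosome 6) from 2.38, 2.37 and 2.49 to 65.0, 70.7 and 65.5. Their fold differences were 14.7 and 27.8. The other members that were higher were IAA13 (7.50-fold), IAA8-like (2.82-fold), IAA2-like (2.02-fold) and IAA26-like (1.55-fold).

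The members that led the family in WT were lower in the mutant or did not pass. IAA11-like (FvH4_2g20500, chromosome 2, 17197666 to 17200698) gave WT values of 186, 189 and 202 FPKM and mutant values of 44.3, 44.9 and 45.5, 4.28-fold lower (adjusted p = 1.43e-10). AUX28-like (FvH4_2g22520) read 97.0, 106 and 105 FPKM in WT libraries and 57.7, 52.3 and 56.3 in mutant ones, and the 22D-like gene head to head with it (FvH4_2g22530) was 2.31-fold lower. The largest fall was that of IAA33 (FvH4_4g08200, chromosome 4, 8040852 to 8042094), from 10.4, 12.7 and 12.6 FPKM to 0.37, 0.59 and 0.33, which is 27.7-fold. In Arabidopsis IAA33 is an atypical member that lacks the domain through which receptors bind the others. IAA17 was 1.85-fold lower. IAA9, whose loss in tomato gives fruit without pollination, was at 67.3 ± 2.91 FPKM (WT) and 69.0 ± 1.82 (mutant) (adjusted p = 0.518), and it was lower once the libraries were rescaled (log2 change -0.24, adjusted p = 0.00177).

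**Figure D2:**
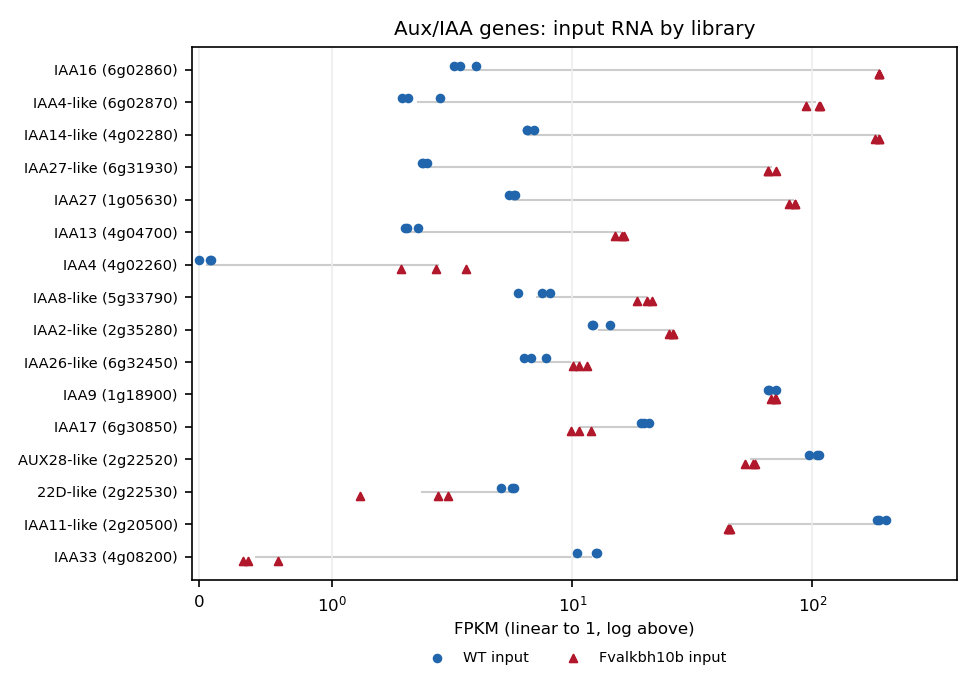
Input RNA of the 16 tested Aux/IAA genes in FPKM, on an axis that is linear to 1 and logarithmic above; circles are the 3 WT and triangles the 3 mutant libraries, and grey lines join the means. The genes near 190 FPKM are IAA11-like in WT and IAA16 and IAA14-like in the mutant, and the genotypes overlap only at IAA9.

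Auxin response factors, the DNA-binding proteins that the Aux/IAA repressors hold, were mostly higher. Of 16 tested members 12 were higher, 3 were lower and 1 did not pass, with a median log2 change of 0.78. The shares are 75% higher and 18.8% lower, beside 48.3% and 19.1% of all tested genes. A log2 change of at least 1 was reached by 6 of the higher members (37.5% of those tested, beside 14.0% of all tested genes). Their summed level was 246.4 ± 5.62 FPKM (WT) and 493.7 ± 10.2 (mutant), a ratio of 2.00. With rescaled libraries the split was 10 higher and 4 lower.

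ARF5, 6, 7, 8 and 19 are the activators of transcription in Arabidopsis, and 6 of the strawberry genes carry one of these numbers, of which 5 were higher and 1 was lower. ARF6 (FvH4_3g05010, chromosome 3, 2893295 to 2900890), the most abundant ARF in both genotypes, measured 37.1, 35.8 and 35.5 FPKM in the WT libraries against 102, 98.4 and 96.3 in those of the mutant, 2.73-fold higher (adjusted p = 2.35e-09). ARF8 (FvH4_1g27650, chromosome 1, 19288337 to 19298676), which in Arabidopsis acts with ARF6 in flower and fruit development, gave WT values of 33.2, 33.8 and 31.8 FPKM and mutant values of 60.6, 60.1 and 58.7. ARF6-like was 1.95-fold higher, and the ARF19-like genes FvH4_1g09150 and FvH4_4g06190 were 1.42-fold and 1.30-fold higher. The second of these no longer passed after rescaling (adjusted p = 0.277), and the first shares 789 bp with a chaperonin gene on the other strand. ARF5 (FvH4_2g38760, chromosome 2, 27981122 to 27987175), named after ARF5 (MONOPTEROS) of Arabidopsis, which acts in embryo and vascular patterning, was the exception, with 22.8, 22.2 and 21.1 FPKM in the WT libraries against 14.1, 13.7 and 13.7 in those of the mutant, 1.59-fold lower.

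Among the 10 tested genes with other numbers, most of which are repressors in Arabidopsis, 7 were higher, 2 were lower and 1 did not pass. ARF18 (FvH4_7g16840, chromosome 7, 14387387 to 14398926) read 1.76, 1.61 and 1.53 FPKM in WT libraries and 25.0, 23.6 and 23.1 in mutant ones, the largest ARF rise at 14.6-fold. ARF4 (FvH4_3g32860, chromosome 3, 28256280 to 28262142) measured 4.32, 4.72 and 4.34 FPKM in the WT libraries against 35.5, 36.5 and 37.4 in those of the mutant, 8.18-fold higher. ARF2 (FvH4_5g09310, chromosome 5, 5361290 to 5367001), a repressor of growth in Arabidopsis, gave WT values of 15.8, 16.7 and 15.8 FPKM and mutant values of 55.5, 52.6 and 53.0, 3.33-fold higher. Each of these 3 genes had all mutant libraries above all WT libraries. ARF9 was 4.67-fold higher at a low level, with means of 0.903 FPKM in WT and 4.22 in the mutant. ARF1 was 2.52-fold and ARF3 1.68-fold higher.

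The name ARF18-like was carried by 3 tested genes that did not move alike. FvH4_7g19350 fell from 1.75, 1.81 and 1.43 FPKM to 0.68, 0.82 and 0.24, and FvH4_3g32000 fell from 7.64 ± 0.291 to 5.69 ± 0.509 FPKM. FvH4_6g15960 was at 16.9 ± 0.792 FPKM (WT) and 19.5 ± 0.559 (mutant) (log2 change 0.19, adjusted p = 0.0233). This last call was lost after rescaling, where the log2 change was -0.074 (adjusted p = 0.371), with quantile normalization (0.831), and without WT replicate 2 (0.0799), WT replicate 3 (0.0597) or mutant replicate 2 (0.0750). ARF17 did not pass (2.43 ± 0.353 and 1.91 ± 0.555 FPKM, adjusted p = 0.201), and it was lower after rescaling (adjusted p = 0.0359).

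The one receptor taken by the rule, AUXIN SIGNALING F-BOX 2 (FvH4_6g54140, chromosome 6, 39545305 to 39549484, minus strand), read 51.3, 54.1 and 50.2 FPKM in WT libraries and 84.0, 78.6 and 78.1 in mutant ones, 1.55-fold higher (adjusted p = 2.52e-06). It shares 436 bp with a hypothetical gene on the other strand, and reads of these genes cannot be told apart without strand. AUXIN RESPONSE 4 (FvH4_6g06010), which in Arabidopsis helps to bring the importer AUX1 to the membrane, measured 35.3, 36.0 and 34.6 FPKM in the WT libraries against 49.7, 50.3 and 38.5 in those of the mutant. Its call (adjusted p = 0.00545) was lost after rescaling (0.432).

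Transport genes taken by the rule, most of which encode carriers of auxin in or out of cells, were higher with 1 exception. ABC transporter B genes were not taken by it and are given with the other pathway genes. Of 8 tested members 7 were higher, each by at least 2-fold, 0 were lower and 1 did not pass, with a median log2 change of 1.52. The share higher is 87.5%, beside 48.3% of all tested genes. After rescaling 7 were higher and 1 lower. The 4 importers of the AUX/LAX type, described as auxin transporter-like proteins, summed to 22.5, 23.2 and 22.1 FPKM over the WT libraries and to 66.6, 72.1 and 70.5 over those of the mutant. The 7 efflux carriers, of which 3 were tested, summed to 17.5, 15 and 16.5 FPKM over the WT libraries and to 54.6, 55.1 and 54.0 over those of the mutant. Both sums were higher in every mutant library than in any WT library.

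Among the importers, transporter-like protein 2 (FvH4_7g24200, chromosome 7, 18706471 to 18710547) gave WT values of 12.4, 12.9 and 12.9 FPKM and mutant values of 29.3, 31.7 and 31.7. Transporter-like protein 3 (FvH4_2g26410, chromosome 2, 21207919 to 21210861) read 8.20, 8.15 and 6.75 FPKM in WT libraries and 25.1, 27.7 and 28.7 in mutant ones, 3.53-fold higher. FvH4_6g11840 and FvH4_2g01570 share the name transporter-like protein 2. The former was 4.56-fold higher, and the latter measured 0.12, 0.03 and 0 FPKM in the WT libraries against 2.65, 2.52 and 1.38 in those of the mutant.

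Efflux carrier component 1c (FvH4_5g17310, chromosome 5, 9889544 to 9893867), of the PIN family, gave WT values of 2.64, 1.42 and 2.31 FPKM and mutant values of 14.4, 12.2 and 13.3, 6.27-fold higher. Component 8 (FvH4_6g00660) was 2.82-fold and component 3-like (FvH4_4g32450) 3.20-fold higher. BIG (FvH4_6g46320), a very large protein needed for auxin transport in Arabidopsis, read 19.2, 19.9 and 20.4 FPKM in WT libraries and 20.0, 20.2 and 19.6 in mutant ones (adjusted p = 0.922). After rescaling its log2 change was -0.26 (adjusted p = 0.00380), and with quantile normalization it was -0.16 (0.0467).

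The GH3 enzymes, which inactivate auxin by joining it to amino acids, split between a leading gene that was lower and 4 genes that were higher, also after rescaling. Among the 5 tested, the shares are 80% higher and 20% lower, beside 48.3% and 19.1% of all tested genes. GH3.5 (FvH4_7g16040, chromosome 7, 13807006 to 13811947) measured 43.4, 39.2 and 39.2 FPKM in the WT libraries against 18.3, 18.6 and 16.6 in those of the mutant, 2.27-fold lower (adjusted p = 2.65e-07). It held 69.0% of the summed FPKM of the 9 GH3 genes in WT and 27.1% in the mutant. GH3.9 (FvH4_2g25330, chromosome 2, 20594678 to 20597644) gave WT values of 4.28, 5.05 and 4.89 FPKM and mutant values of 22.2, 20.6 and 21.6, 4.52-fold higher, and it led the family there with 32.5%. GH3.6 (FvH4_2g24250) was 1.61-fold higher, with 12, 10.5 and 12.1 FPKM in the WT libraries against 21, 17.3 and 17.2 in those of the mutant. The GH3.1 genes were low in WT. FvH4_2g04750 was 3.10-fold higher, and FvH4_1g16980 read 0.03, 0 and 0 FPKM in WT libraries and 2.33, 1.84 and 2.60 in mutant ones.

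**Figure D3:**
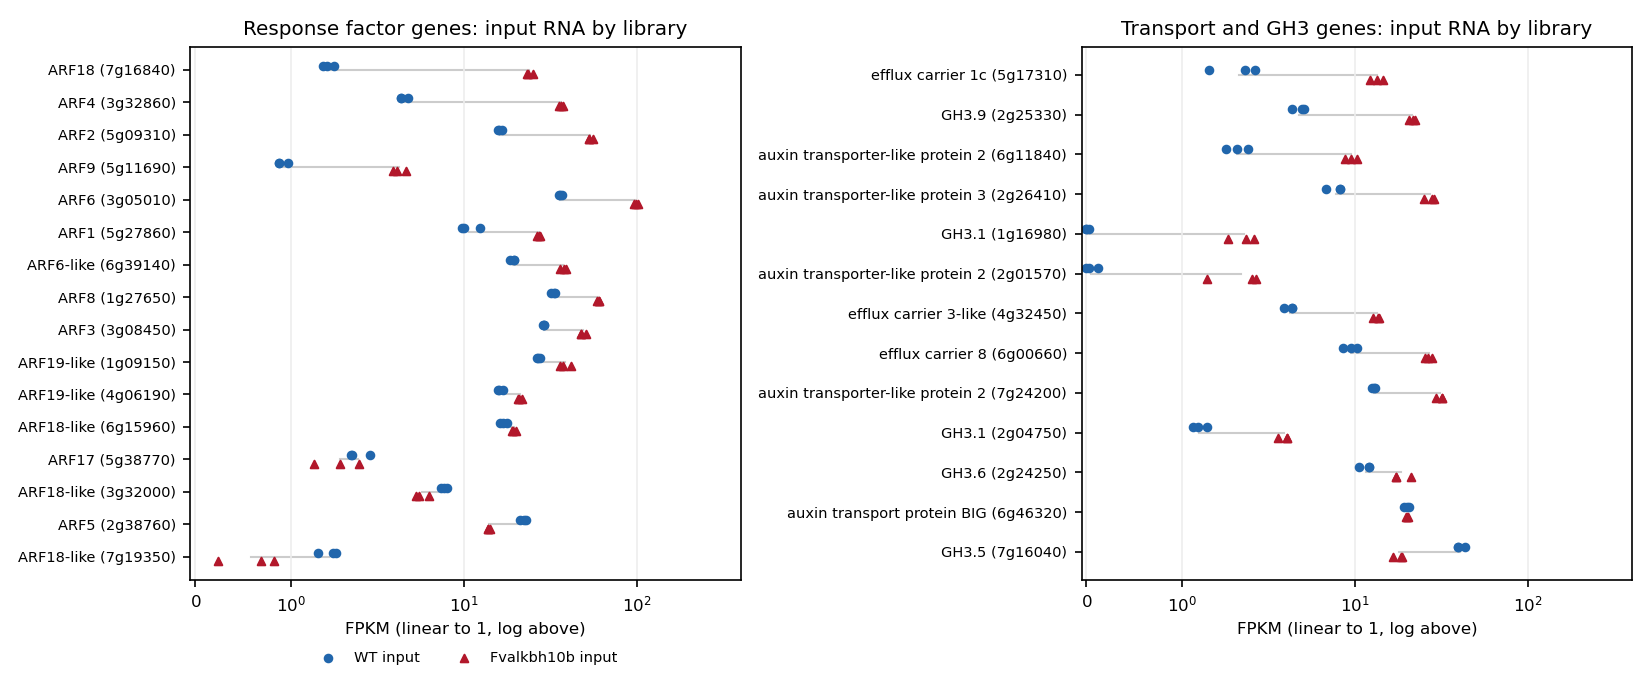
Input RNA of the 16 tested response factor genes (left) and of the 8 tested transport and 5 tested GH3 genes (right) in FPKM, on an axis linear to 1 and logarithmic above; circles are WT and triangles mutant libraries (n = 3 each), and grey lines join the means. All transport genes but BIG lie to the right in the mutant, and GH3.5 lies to the left.

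SAUR genes, which encode small proteins that promote cell expansion in Arabidopsis, moved mostly downward. Of 13 tested members 3 were higher, 9 were lower and 1 did not pass, with a median log2 change of -1.06. The shares are 23.1% higher and 69.2% lower, beside 48.3% and 19.1% of all tested genes. Their summed level was 254.4 ± 4.48 FPKM (WT) and 108.6 ± 4.61 (mutant), a ratio of 0.427. After rescaling, 3 were higher and 10 lower.

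Of the 9 falls, 8 lay in 2 runs of neighbouring genes. On chromosome 2, 7 SAUR genes lie between 9478373 and 9546312, and all 5 that were tested were lower. FvH4_2g10770, described as a small auxin-up RNA, measured 69.8, 64.9 and 67.3 FPKM in the WT libraries against 17.5, 19.2 and 18.6 in those of the mutant. FvH4_2g10870, described as 15A-like like the next 3, gave WT values of 41.6, 48.2 and 45.3 FPKM and mutant values of 9.44, 10.4 and 9.80. FvH4_2g10810 was at 31.1, 31.8 and 30.0 FPKM in WT and was listed at 0 in all 3 mutant libraries. Its neighbour FvH4_2g10820, at 7.17, 6.27 and 6.78 FPKM in WT, was also listed at 0 in all 3, and no fold is given for either. FvH4_2g10850 was 2.05-fold lower. The 1 other gene inside this stretch was tested and did not pass.

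On chromosome 5, 4 SAUR genes lie between 14027627 and 14114209, and all 3 tested ones were lower. FvH4_5g22790 read 16.9, 19.2 and 23.8 FPKM in WT libraries and 2.73, 1.45 and 2.75 in mutant ones, 8.64-fold lower. FvH4_5g22780 was 2.66-fold lower, and FvH4_5g22810, at 1.54 ± 0.479 FPKM in WT, was 2.10-fold lower (adjusted p = 0.0181, and 0.0572 without mutant replicate 1). Inside this stretch lie 7 other genes, of which 4 were tested and 2 of these were lower too, so the falls there were not confined to SAUR genes. Neighbouring SAUR genes can be close copies that share reads, and the division of reads among them is then uncertain.

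Elsewhere the direction varied even between neighbours. On chromosome 2, FvH4_2g38720 (15A) measured 15.7, 19.4 and 21.8 FPKM in the WT libraries against 36.3, 38.3 and 33.8 in those of the mutant, while FvH4_2g38740 (6B) was 2.64-fold lower, and both lie within 43.7 kb together with ARF5. The first of them held 33.3% of the SAUR sum in the mutant after 7.45% in WT. FvH4_7g17340 (X15-like) gave WT values of 3.40, 1.78 and 3.46 FPKM and mutant values of 4.82, 8.95 and 6.18. FvH4_3g13730 was 2.03-fold higher, with means of 1.41 FPKM in WT and 2.86 in the mutant, and this call was lost with quantile normalization (adjusted p = 0.231). FvH4_1g11980 did not pass (adjusted p = 0.119). It was lower after rescaling (0.0268), with quantile normalization (0.0215), and without WT replicate 3 (0.0182) or mutant replicate 3 (0.0203).

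Over all families, 37 of the 102 genes lie within 100 kb of another one, in 12 groups. In 6 groups at least 2 members were called, and in 5 of these the called members moved in 1 direction. The same was not counted for neighbouring genes over the whole genome, so whether auxin genes differ from others in this was not tested. These include the 3 head-to-head Aux/IAA pairs, of which those on chromosomes 6 and 4 were higher and the one on chromosome 2 (18473010 to 18492052) was lower. The group on chromosome 2 that holds ARF5 was the exception.

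The genes named after auxin outside these families held the largest levels among the 102. Of 9 tested 4 were higher, 4 lower and 1 did not pass, with a median log2 change of -0.06. Each share is 44.4%, beside 48.3% higher and 19.1% lower among all tested genes. After rescaling 3 were higher and 5 lower. The gene described as auxin-induced in root cultures protein 12 (FvH4_2g18001, chromosome 2, 15427798 to 15428616), a cytochrome of the cell surface in other plants, read 1423, 1269 and 1232 FPKM in WT libraries and 120, 116 and 111 in mutant ones, 11.3-fold lower (adjusted p = 2.04e-11). The opposite held for the gene of an auxin-repressed 12.5 kDa protein (FvH4_3g08830, chromosome 3, 5157384 to 5158425), with 39.4, 41.5 and 38.9 FPKM in the WT libraries against 1237, 1319 and 1380 in those of the mutant. These genes took 82.6% and 2.52% of the summed FPKM of the 14 in WT and 7.32% and 83.0% in the mutant, so that the sum itself was nearly level, at 1584 and 1581 FPKM. A gene of the same name on chromosome 6 (FvH4_6g35330) was 6.42-fold higher.

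Both tested genes of germin-like auxin-binding proteins (ABP19a-like) fell, and they may share reads as close copies. FvH4_1g18170 (chromosome 1, 10574446 to 10575986) measured 60.7, 65.0 and 65.8 FPKM in the WT libraries against 0.20, 0.48 and 1.0 in those of the mutant, and FvH4_6g36650 (chromosome 6, 28830858 to 28831484) gave WT values of 37.3, 32.4 and 39.0 FPKM and mutant values of 2.21, 2.25 and 1.14. Their fold differences were 114 and 19.4. The gene described as ARG2 (FvH4_2g25860) was 5.86-fold lower. Auxin-binding protein T85, at 5.59 ± 0.535 and 5.32 ± 0.375 FPKM, did not pass (adjusted p = 0.638), and it was lower after rescaling (adjusted p = 0.0295).

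**Figure D4:**
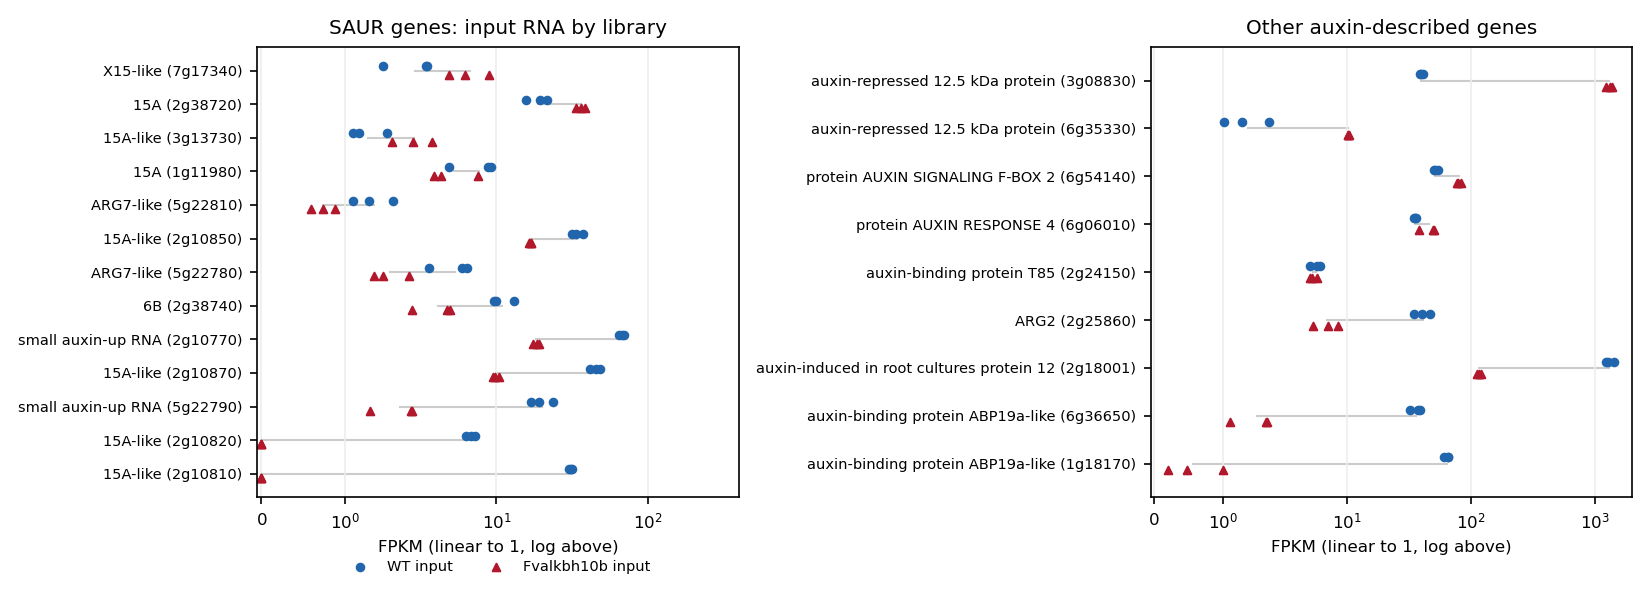
Input RNA of the 13 tested SAUR genes (left) and of the 9 other tested genes named after auxin (right) in FPKM, on axes linear to 1 and logarithmic above; circles are WT and triangles mutant libraries (n = 3 each), and grey lines join the means. FvH4_2g10810 and FvH4_2g10820 are listed at 0 in the mutant, and the auxin-repressed gene and the root-culture gene exchange places at the top of the range.

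The m6A peaks were listed by the authors once per genotype from the 3 replicate experiments, with the log2 ratio of IP over input as the enrichment of each peak, so that no value per IP library was compared. A peak was listed on 42 of the 102 genes in WT (72 peaks) and on 42 in the mutant (75 peaks), with 38 genes in both lists, 4 in the WT list alone, 4 in the mutant list alone and 56 in neither. Over all 15571 genes tested for RNA, 82.2% had a peak in WT, 83.2% in the mutant, 78.2% in both and 12.8% in neither, with 4.01% in WT alone and 4.93% in the mutant alone. The 102 auxin genes include 35 below the RNA filter, so these shares compare with the 67 tested ones only. Of those 67, 45 had a peak in at least 1 list and 22 had none, and 11 of the 22 were SAUR genes.

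A peak was listed in at least 1 genotype on all 16 tested ARF genes, with 39 peaks on them in WT and 37 in the mutant. Of the 13 tested SAUR genes 2 had a peak. SAUR genes are short, with a median span of 567 bp over the 13, and of the 12 that span at most 1.2 kb 2 had a peak, beside 53.7% of all 1517 tested genes of such a span. Among genes of that span with a mean of 5 to 50 FPKM, 2 of 8 SAUR genes had a peak, beside 60.8% of 643 genes. These limits of span and level were chosen after the values were seen.

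The authors placed 34 of the 72 WT peaks (47.2%) and 36 of the 75 mutant peaks (48.0%) in a 3' UTR, beside 54.5% and 54.7% of all peaks in the lists. Peaks of the auxin genes in 3' UTRs had a median log2 enrichment of 2.84 in WT and 2.89 in the mutant, and those in coding exons had 1.05 and 1.46. Over all places the median was 1.66 in WT and 1.81 in the mutant, beside 2.28 and 2.39 over all peaks. An overlap of 1 bp or more with the other list was found for 59 WT peaks (81.9%) and 63 mutant peaks (84.0%), beside 82.3% and 79.3% of all peaks. These are the authors' values, and they are given to describe each list.

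The strongest peak on an auxin gene lay in the 3' UTR of ARF2 (chr5:5361440-5361639 in WT), with a log2 enrichment of 5.67 in the WT list and 4.72 at the overlapping mutant interval. Strong 3' UTR peaks were also listed on IAA8-like (4.2 in WT and 3.98 in the mutant), ARF6-like (3.91 and 3.98) and ARF8 (3.49 and 3.79). ARF1 had a 3' UTR peak in WT (chr5:19092607-19092956, 4.05) that overlapped no mutant peak, and a weaker one in the same UTR in both lists (2.47 and 2.49). IAA16, with its 53.7-fold difference in RNA, had the same 3' UTR interval in both lists (chr6:1614049-1614371), at 2.40 in WT and 2.15 in the mutant. IAA14-like had a 5' UTR peak in both, at 1.09 and 1.12.

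A peak in 1 list alone was listed on genes that were low, or changed in level, in either direction. In the WT list alone were IAA33, the ARF18-like gene FvH4_7g19350, GH3.5 and the auxin-repressed gene FvH4_3g08830. In the mutant list alone were IAA13, transporter-like protein 2 FvH4_2g01570, ABP19a-like FvH4_1g18170 and ARF23-like FvH4_2g24730, the last of which was not tested for RNA. The ABP19a-like gene has its peak in the genotype where its RNA was listed at no more than 1.0 FPKM.

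The authors' deposited table of differential peaks held 31 intervals on 25 of the auxin genes. At an adjusted p under 0.05 in the authors' deposited table, m6A was higher in the mutant at 13 of them and lower at 10, and 8 did not pass, beside 48.7% higher and 21.9% lower among all 8889 intervals listed. The called intervals lie on 20 genes, all among the 67 tested for RNA, beside 32.4% of all 15571 tested genes with a called interval. How these changes were computed is not stated in the sources used here, so whether they share the input with the RNA levels given above was not tested. Their p-values are rounded to 2 decimals.

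Among the ARFs, ARF18 had both directions in the authors' deposited table, with a log2 change of m6A of -0.94 in a coding exon and 0.57 in the 3' UTR (chr7:14397989-14398438). ARF6 had 2 intervals in its 3' UTR in the authors' deposited table, both lower (-0.37 and -0.62), and ARF2 had one at -0.43. The ARF18-like genes FvH4_3g32000 and FvH4_6g15960 were at 0.67 and 0.64 there, each in a coding exon. Among Aux/IAA genes, the authors' deposited table gives -1.0 for an interval in the 3' UTR of IAA27 (chr1:2978441-2978582), where the peak lists had log2 enrichments of 2.32 in WT, over a longer interval, and 2.42 in the mutant. IAA26-like was at -0.52 and IAA8-like at -0.28 in the authors' deposited table.

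The largest change on an auxin gene in the authors' deposited table was 4.11, in a coding exon of the GH3.1 gene FvH4_2g04750 (chr2:3687877-3687976). This gene was at 1.25 ± 0.117 FPKM (WT) and 3.89 ± 0.260 (mutant). GH3.5 had a 5' UTR interval at -0.84 in the authors' deposited table. The SAUR gene FvH4_2g10770 was at 0.40 there, BIG at 0.39, AUXIN SIGNALING F-BOX 2 at -0.24, and AUXIN RESPONSE 4 at 0.22 and 0.49.

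The listed enrichments did not always move the way of these changes. A peak of both lists lay at 20 of the called intervals, and at 3 of them, all lower in the authors' deposited table, the listed enrichment was higher in the mutant. These are the IAA27 interval, the ARF6 interval at -0.62 in the authors' deposited table (log2 enrichment 2.57 in WT and 2.76 in the mutant) and that of AUXIN SIGNALING F-BOX 2 (2.66 and 2.71).

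Set beside input RNA, 7 of the 13 intervals with higher m6A in the authors' deposited table lie on genes whose RNA was higher, 4 on genes whose RNA was lower and 2 on genes that did not pass. Of the 10 intervals with lower m6A in the authors' deposited table, 9 lie on genes with higher RNA and 1 on a gene with lower RNA. The same order held over the 4095 called intervals on called genes of the whole table, where m6A was lower at 44.2% of those on genes with higher RNA and at 10.9% of those on genes with lower RNA. The auxin genes are few, the method behind the changes of m6A is not stated, and no test was made.

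**Figure D5:**
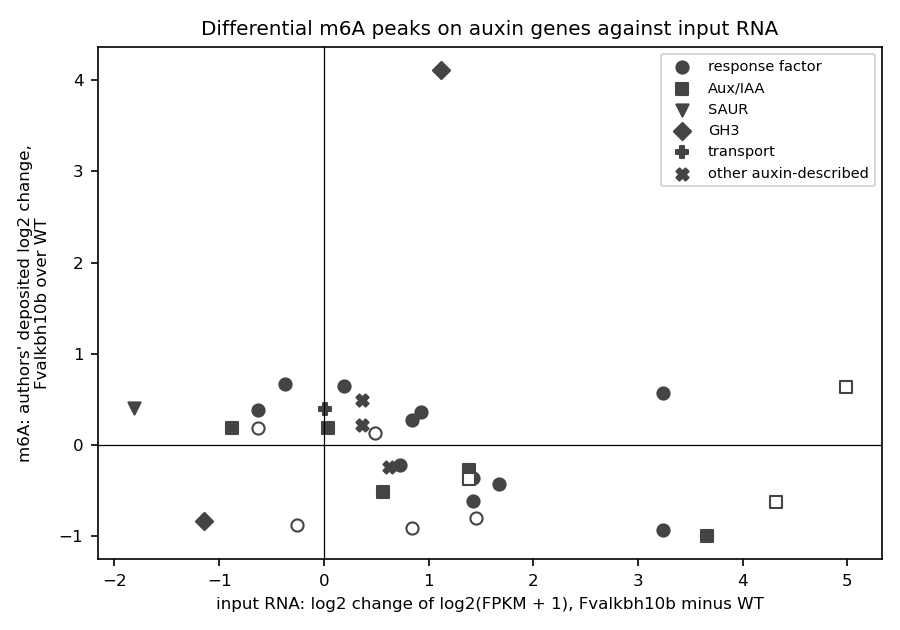
Log2 change of m6A in the authors' deposited table against log2 change of input RNA for the 31 intervals on auxin genes; marker shapes are families, filled markers passed the authors' adjusted p of 0.05 and open ones did not. The interval at 4.11 is on the GH3.1 gene FvH4_2g04750, and 9 of the 10 filled markers below 0 lie to the right of 0.

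Other genes of the pathway, found by words for receptors, co-repressors, synthesis enzymes, conjugate hydrolases, transporters and kinases, numbered 111. Of 70 tested 40 were higher, 13 lower and 17 did not pass, beside 48.3% higher and 19.1% lower among all tested genes. The median log2 change was 0.35, beside 0.25 over all tested genes. After rescaling 28 were higher and 20 lower. Of the 8 tested genes taken as enzymes of synthesis, 6 were higher and 1 was lower (5 and 2 after rescaling), and the words also took in a nicotinamidase and an abscisic-aldehyde oxidase. The gene described as tryptophan aminotransferase-related protein 4 (FvH4_2g13010) read 0.71, 1.06 and 0.35 FPKM in WT libraries and 5.49, 6.43 and 5.13 in mutant ones. Genes described as related protein 2-like were too low to be tested. Their means were 0.213 FPKM (WT) and 0.363 (mutant) for FvH4_5g05880, and 0.0733 and 0.03 for FvH4_7g02760.

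The receptor genes did not move together. The TIR1-like gene FvH4_2g24840 was at 129 ± 4.6 FPKM (WT) and 78.2 ± 5.55 (mutant), while the other TIR1-like gene (FvH4_5g35920) was 1.49-fold higher. Among the co-repressors that Aux/IAA proteins recruit, the TOPLESS-related 4-like gene (FvH4_1g02730) measured 183, 177 and 181 FPKM in the WT libraries against 29.6, 28.0 and 28.5 in those of the mutant, 6.29-fold lower. TOPLESS itself (FvH4_6g29170) was at 22.9 ± 0.705 FPKM (WT) and 69.6 ± 1.44 (mutant).

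ILR1-like hydrolases, which release auxin from its amino acid conjugates, included 3 abundant neighbours on chromosome 6 that were all lower. FvH4_6g19670, described as partial, gave WT values of 182, 186 and 192 FPKM and mutant values of 21.8, 22.7 and 25.9, and FvH4_6g19690 and FvH4_6g19700 were 2.58-fold and 2.77-fold lower. The other ILR1-like hydrolases that were called, 3 genes, were higher, of which FvH4_1g06730 did not pass after rescaling (adjusted p = 0.125). LOB domain-containing protein 25 (FvH4_6g51300), of a family with known ARF targets, read 2.31, 1.89 and 2.63 FPKM in WT libraries and 62.3, 67.7 and 67.8 in mutant ones. The WAT1-related gene FvH4_6g50360, of a family with a vacuolar auxin exporter in Arabidopsis, measured 3.20, 2.55 and 3.81 FPKM in the WT libraries against 40.3, 40.2 and 45.2 in those of the mutant. The 2 tested ABC transporter B genes moved in opposite directions. Member 19 (FvH4_6g48960) gave WT values of 13.3, 11.5 and 11.7 FPKM and mutant values of 3.12, 3.43 and 3.33, 3.69-fold lower. Member 1 (FvH4_6g16450) was 1.80-fold higher.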

How the data were processed

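The labels describe 12 libraries of strawberry fruit, 3 each of input and m6A-precipitated RNA of WT and of the Fvalkbh10b mutant. FastQC, HISAT2 and StringTie are named, without role, by the submitters' processing notes. No source used here gives the build, annotation, peak caller or strandedness. The authors' FPKM of the 6 input libraries were used as deposited, per the file headers. Peak positions, log2 ratios of IP over input and p-values were deposited by the authors for each peak. No column of a sample was left unmapped. Peak starts were raised by 1 to count from 1.

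The depth is unknown, since FPKM keep no counts. Genes averaging 1 FPKM or more were tested with limma 3.58.1 (R 4.3.3) on log2(FPKM + 1) with a mean-variance trend, genotype as the only term and Benjamini-Hochberg adjustment over all 15571. Fold differences are ratios of mean FPKM. The log2 changes understate the change of low genes, and a listed 0 can be a failed estimate. On simulated data of these 15571 genes, 3 against 3, the step recovered 46.3%, 92.5% and 98.5% of genes changed by 0.5, 1 and 2 log2 units and called 13 of 15371 unchanged ones. Far fewer genes were changed there than were called in the data. The labels' replicate numbers were not used to pair libraries.

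Members, lists and tests were chosen with earlier results of these data known. Members were named by rule: per family, the 2 highest levels, the 3 largest called changes among genes averaging 5 FPKM or more in 1 genotype with separate libraries, the largest opposite change, and up to 2 called differential peaks. The other pathway genes named by rule were the 2 largest rises and the 2 largest falls. All other named genes were added after their values were seen. The alternatives tried were another pseudocount, 2 filters, 2 scalings, the replicate block, libraries left out, members without the last class, stronger peaks, a larger overlap and stricter calls. Sequences and a gene table of a different assembly were not used here.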

Additional observations from a re-analysis of the deposited data

How the results depend on the processing

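Rescaling turned the sign of 3 genes, FvH4_1g18900 (IAA9, to -0.24) and FvH4_6g46320 (BIG, to -0.26), which had not passed before, and FvH4_6g15960 (ARF18-like, to -0.074), which then did not pass. Quantile normalization turned BIG to -0.16. No other named change in input RNA turned its sign together with a call. The counts of 40 higher and 22 lower auxin genes were 49 and 23 with no filter and 33 and 17 with a mean of at least 5 FPKM, and were 40 and 22 with a pseudocount of 0.1. Leaving out 1 library at a time gave 37 to 41 higher and 20 to 23 lower. SAUR genes higher were 5 with no filter and 1 with a mean of at least 5 FPKM, and GH3 genes higher were 2 with that mean, since these filters change which genes are tested. Transport genes lower were 1 after rescaling and 1 with quantile normalization, in place of 0. The other pathway genes lower were 20 after rescaling. Without the 14 genes named after auxin outside the families, 36 were higher and 18 lower. With peaks of a log2 ratio of at least 1, 2 genes were in the WT list alone and 8 in the mutant list alone. Of the authors' differential peaks, 9 were higher and 3 lower at a listed adjusted p under 0.01. As these values are rounded to 2 decimals, this keeps only intervals listed at 0. With a log2 change of at least 1, 1 was higher and 1 lower. The shares of all intervals at these limits are not given here. The causes were not tested.

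Deviations of libraries with the same replicate number correlated at -0.03 to 0.04. In 2 of the WT and 2 of the mutant libraries the highest correlation was with the library of the same number. With 3 libraries per genotype these values cannot decide whether the numbers pair the libraries. With the replicate block the counts were 40 higher and 22 lower, and 39 and 13 for the other pathway genes.

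Limits: 3 libraries per genotype, unknown depth, 1 peak list per genotype and no stated strandedness.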
